A study of Mus musculus with 12 samples.

Results

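Chromatin modifiers and histone-binding regulators were examined in myelinating oligodendrocytes sorted from mouse brain. The set holds 32 genes chosen by name: the histone variant gene H3f3a, histone chaperones, nucleosome remodellers, histone deacetylases and corepressors, enzymes that write or erase histone methylation, acetylation cofactors, Polycomb-related proteins and DNA methylation proteins. Members were found by matching the gene identifiers of the count table to RefSeq symbols, and all 32 were present among 2398 genes, 16 of them on chromosome 1 and 16 on chromosome 10. All genes of the table with a matched position lie on chromosome 1 or chromosome 10, so CPM, marker lists and shares of all genes tested refer to these chromosomes and not to the whole genome. Of the members, 31 passed the filter on low counts, and Dnmt3l did not.

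Both groups consisted of C57BL/6 mice that carried the Ndrg1-EGFP reporter, which marks oligodendrocytes that make myelin, and 2 floxed alleles of Lmna, the gene of lamins A and C. The control genotype was Cnp+/+;Lmnafl/fl and is called WT. The other was CnpCre/+;Lmnafl/fl and is called KO. In KO mice Cre is made from a Cnp allele, a gene used by the oligodendrocyte lineage, so the groups also differ by Cre and by 1 Cnp copy. The labels give the age as postnatal day 60 and, elsewhere, as 8 weeks, and the cells were GFP-positive and free of the dead-cell dye propidium iodide. There were 3 biological replicates of each genotype with 2 libraries each. Whether a replicate was 1 animal or a pool is not stated in the labels, so p-values measure the spread between these samples. Lmna itself is not analysed here, so its loss was not checked.

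Chromatin regulators place, remove or read chemical marks on histones and DNA, or move nucleosomes along DNA, and many act in shared complexes. Histone deacetylation is known to be required for progenitors to become oligodendrocytes. The lamina under the nuclear envelope, of which lamins A and C are part, contacts inactive chromatin, and several regulators in the set act on such chromatin.

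The counts of the 2 libraries of a replicate were summed, which gave 3694551 to 6093336 counts per replicate in the genes of the table. Expression is given as CPM, the counts per 1000000 counts in these genes, or as CPM per kb of the principal transcript, which allows levels of different genes to be compared. Of 13 fixed markers of mature oligodendrocytes, 2 were in the table, Adamts4 and Nfasc, and their summed level was 10321 to 11902 CPM in the WT replicates. In the KO replicates it was 14783 to 17097 CPM, above every WT replicate. Neither gene passed an adjusted p under 0.05 (edgeR's quasi-likelihood test, 0.504 for Adamts4 and 0.927 for Nfasc). Among all 1484 genes tested, 66 had each KO replicate above each WT replicate. The 2 markers of microglia and leukocytes in the table summed to 41.5 to 85.5 CPM for WT. Their sum was 47.0 to 242 CPM for KO, so these ranges overlapped. For the other fixed lists the ranges in WT and KO overlapped: 3 astrocyte genes, 3337 to 6081 and 4449 to 7317 CPM; 5 vascular and fibroblast genes, 83.6 to 475 and 250 to 639 CPM; 4 neuronal genes, 8.36 to 250 and 13.9 to 49.6 CPM; 2 progenitor genes, 0.497 to 36.6 and 12.2 to 95.6 CPM. Most of the astrocyte sum in every replicate came from 1 gene, S100b, at 2984 to 5599 CPM in WT and 3525 to 6689 CPM in KO. The astrocyte sum is therefore no measure of the list as a whole. The highest neuronal sum, in WT replicate 3, likewise came mostly from 1 gene. Scg2 stood there at 226 CPM, against 2.66 and 31.1 CPM in WT replicates 1 and 2. The highest vascular and fibroblast sum, 639 CPM in KO replicate 1, held 330 CPM of Fn1. The 4 immediate early genes, which respond to tissue dissociation, summed to 285 to 3564 CPM for WT, against 393 to 2426 CPM for KO. No marker found in the table was at 0 in all 6 replicates. In bulk samples fewer cells of a type and less RNA per cell cannot be told apart, and the part of these levels in the results below was not tested.

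The order of the regulators by level was led by H3f3a, which encodes the replacement histone H3.3 that is deposited outside DNA replication. Its mean level over the 6 replicates was 863 ± 109 CPM per kb (SD, n = 6), higher than 93.1% of 1399 tested genes with a known length. Smarcb1, a core subunit of the SWI/SNF remodelling complex, followed at 830 ± 55.0 CPM per kb. Mbd3, a subunit of the NuRD complex that joins remodelling to histone deacetylation, stood at 777 ± 44.7 CPM per kb. Next came Tada1, a subunit of the SAGA acetyltransferase complex, at 684 ± 46.1 CPM per kb, and the arginine methyltransferase gene Prmt2 at 551 ± 40.2 CPM per kb. The ranges of neighbours in this order overlapped from H3f3a to Tada1, whereas those of Smarcb1, at 782 CPM per kb or more, and Tada1, at 759 or less, did not. Tada1, at 640 CPM per kb or more, also lay above Prmt2, at 587 CPM per kb or less.

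Hdac2, a class I histone deacetylase, overlapped with Prmt2 and averaged 407 ± 42.4 CPM per kb. The levels then declined by overlapping ranges to Rcor3, a corepressor of the CoREST family, at 208 ± 14.8 CPM per kb (SD, n = 6). Between them lay Zfp281, a zinc finger regulator of transcription, at 320 ± 34.8 CPM per kb, Rbbp5, a core subunit of the complexes that methylate histone H3 lysine 4, at 261 ± 24.9, the lysine methyltransferase gene Smyd2 at 257 ± 17.9, and the H3-H4 chaperone gene Asf1a at 238 ± 19.6 CPM per kb. Rcor3 did not overlap with Ncoa2, a nuclear receptor coactivator, at 117 ± 11.9 CPM per kb. This gap depends on the length used, which was 1578 bases for Rcor3 and 4897 bases for Ncoa2. All exons of Rcor3 together span 13622 bases. By CPM with no length Ncoa2 stood above Rcor3, with WT means of 562 and 323 CPM. The levels of Rnf2 (97.9 CPM per kb), Hmg20b (78.7), Kdm5b (74.0) and Phf3 (66.9) then declined by overlapping ranges. Rnf2 is a ubiquitin ligase of Polycomb complexes, and Kdm5b removes methyl groups from histone H3 lysine 4.

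From 48.6 down to 28.9 CPM per kb lay Shprh, Cabin1, Dot1l, Sirt6, Jmjd1c, Smyd3, Ing5 and Tet1. Dot1l, the methyltransferase of histone H3 lysine 79, stood at 46.9 ± 8.14 CPM per kb, and Tet1, which oxidises methylated cytosine in DNA, at 28.9 ± 2.60 CPM per kb (SD, n = 6). Below a last gap, the mean level was 18 CPM per kb for Cdc73, 17.6 for Hdac4, 13.0 for Ino80d, 10.4 for Sirt1, 9.16 for Lin9, 6.42 for L3mbtl3 and 2.44 for Bend3. Cdc73 is a subunit of the PAF1 elongation complex, and Hdac4 is a class IIa deacetylase. The highest tested member stood 354-fold above the lowest. Of the 30 pairs of neighbours in this order, 4 had ranges over the 6 replicates that did not overlap, so most adjacent ranks are not separated by the replicates. The tested members had a median of 66.9 CPM per kb, against 47.6 CPM per kb over all tested genes with a length, and 18 of the 31 lay above that value.

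**Figure D1:**
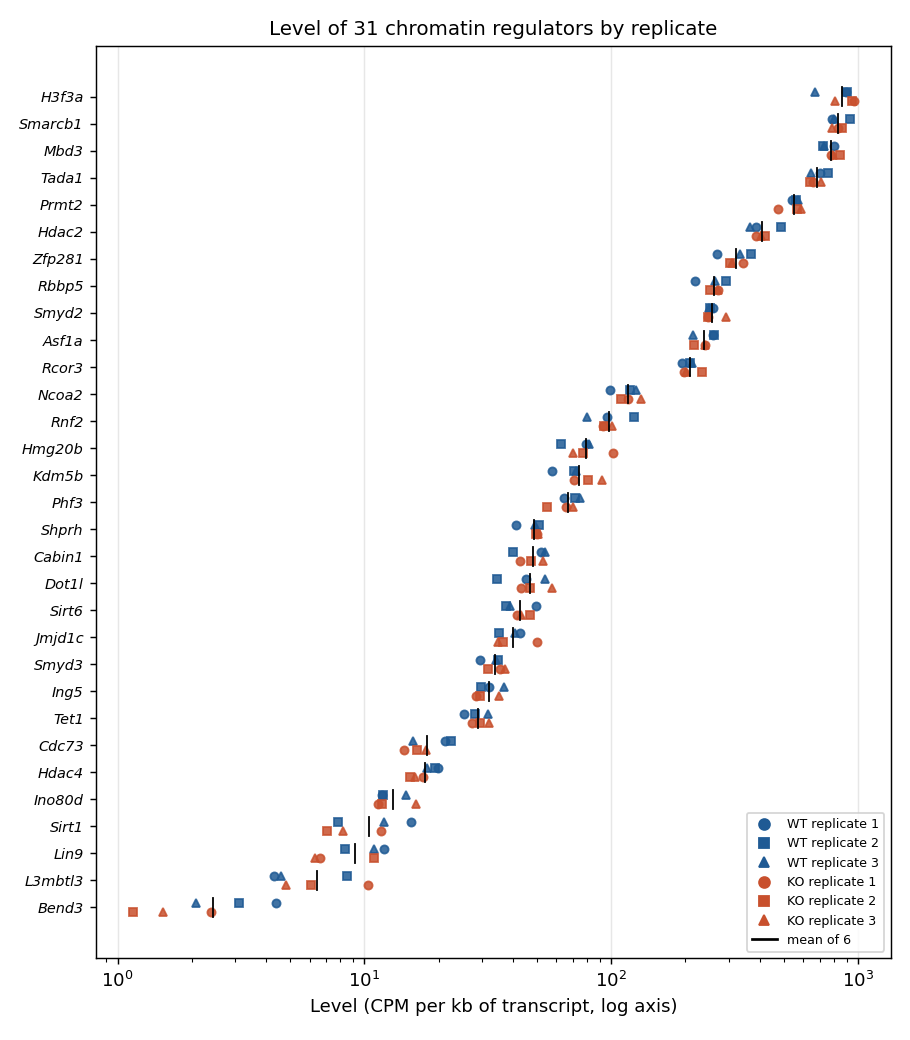
Level of each of the 31 tested chromatin regulators in CPM per kb of transcript on a log axis, with 1 point for each replicate (WT blue, KO orange, marker shape for the replicate number) and a black line at the mean of the 6. All replicates of H3f3a, Smarcb1, Mbd3 and Tada1 lie at 640 CPM per kb or above, and Bend3 lies lowest, at 2.44 CPM per kb on average.

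Dnmt3l, a cofactor of the de novo DNA methyltransferases that is known from germ cells, had 0 counts in each of the 12 libraries. A count of 0 allows up to 3 counts per replicate, which is 0.475 to 0.854 CPM, or 0.261 to 0.469 CPM per kb. These limits cover counting error alone. RefSeq promoter sequences of GRCm38.p6 were found for 26 of the 32 members, and none was listed for Tada1, Ncoa2, Phf3, Smyd3, Ino80d and Lin9. The following 250 bases before the start site are shown because they span the range of levels and of CpG content. Each is written 5′ to 3′ on the strand of the gene, with each CpG dinucleotide in capitals. They are the highest member (H3f3a, chr1:180813606-180813855, minus strand), the member with the most CpG (Cdc73, chr1:143702894-143703143, minus strand), a CpG-poorer member of intermediate level (Kdm5b, chr1:134559928-134560177, plus strand) and the undetected member (Dnmt3l, chr10:78042037-78042286, plus strand).
H3f3a: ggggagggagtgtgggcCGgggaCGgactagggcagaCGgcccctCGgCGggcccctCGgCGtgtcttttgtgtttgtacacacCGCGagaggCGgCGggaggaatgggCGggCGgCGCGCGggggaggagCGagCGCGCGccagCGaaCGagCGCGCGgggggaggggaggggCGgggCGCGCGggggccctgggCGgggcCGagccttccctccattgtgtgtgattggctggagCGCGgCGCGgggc
Cdc73: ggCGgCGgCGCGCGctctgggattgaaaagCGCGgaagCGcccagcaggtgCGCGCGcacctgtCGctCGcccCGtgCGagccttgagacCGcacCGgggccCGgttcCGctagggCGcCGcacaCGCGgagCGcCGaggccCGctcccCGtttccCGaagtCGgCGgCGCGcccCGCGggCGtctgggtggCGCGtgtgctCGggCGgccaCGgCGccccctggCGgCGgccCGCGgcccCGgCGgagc
Kdm5b: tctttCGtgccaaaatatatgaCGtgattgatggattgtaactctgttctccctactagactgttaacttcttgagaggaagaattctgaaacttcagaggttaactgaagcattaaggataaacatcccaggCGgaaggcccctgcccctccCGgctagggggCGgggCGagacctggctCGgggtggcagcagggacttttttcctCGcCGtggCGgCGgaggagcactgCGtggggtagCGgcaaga
Dnmt3l: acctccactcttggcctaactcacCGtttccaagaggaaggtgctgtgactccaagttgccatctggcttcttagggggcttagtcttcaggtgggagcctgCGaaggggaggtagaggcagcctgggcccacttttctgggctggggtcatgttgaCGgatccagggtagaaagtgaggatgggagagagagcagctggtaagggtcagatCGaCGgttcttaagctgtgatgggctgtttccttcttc

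These windows hold 35 CpG in H3f3a, 47 in Cdc73, 13 in Kdm5b and 5 in Dnmt3l, whose 2 further RefSeq start sites have 4 and 3. A low count is not particular to Dnmt3l, since the second start site of Bend3 has 2 CpG. Where a gene has several start sites, the one with the most CpG was used below. The 25 tested members with a sequence had between 10 and 47 CpG at that site, with a median of 26, against a median of 17 over 1162 tested genes of the table. Among 255 genes of the table with no count the median was 2, and 84.7% had 5 CpG or fewer, against 14.5% of the tested genes and 47.4% of all 27025 genes with a promoter sequence. Within the tested members the level did not rise with CpG content. Spearman's rho across the 25 genes was -0.40, which describes genes measured in the same libraries and is no test. Mbd3 and Prmt2 with 14 CpG each stood far above Sirt1 with 39 and Bend3 with 38. Other pairs went the other way. H3f3a with 35 CpG was the highest member, and Rcor3 with 39 stood at 208 CPM per kb, above Tet1 with 15 at 28.9.

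**Figure D2:**
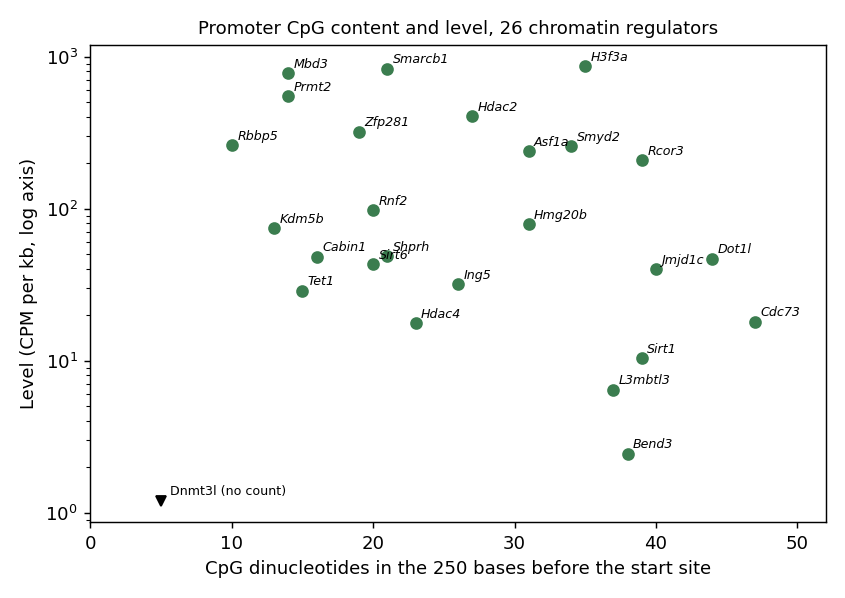
CpG dinucleotides in the 250 bases before the start site (horizontal axis) against mean level in CPM per kb on a log axis (vertical axis) for the 26 regulators with a promoter sequence. Dnmt3l, with 5 CpG and no count, is drawn as a triangle at the foot of the plot since a log axis has no 0, and the other 25 genes have 10 CpG or more at the start site with the most CpG.

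The comparison of KO with WT asked whether the transcripts of these regulators differ between oligodendrocytes of the 2 genotypes. None of the 31 tested regulators passed the threshold, in either direction. In edgeR's quasi-likelihood test each had an adjusted p of 0.994, and the count of 0 stood beside 0% of all 1484 genes tested. At an unadjusted p under 0.05 there were 0 regulators, beside 3.98% of all genes tested. DESeq2 also called 0 of the 31, beside 0.472% of all genes tested. The log2 fold change, KO over WT, was above 0 in 16 members and below 0 in 15, with a median of 0.03, against -0.01 over all genes tested. The median size of the log2 fold change, without its sign, was 0.08 in the members and 0.15 over all genes tested.

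The intervals show how large a difference these data still allow. In 27 of the 31 regulators (87.1%) the 95% interval of the fitted log2 fold change lay within 1 of no change, a 2-fold difference, and in 21 (67.7%) it lay within 0.5. Over all genes tested these shares were 63.6% and 37.7%. The regulators had a median of 357 CPM and all tested genes 151 CPM. The 4 regulators with wider intervals were Sirt1, Lin9, L3mbtl3 and Bend3, which are also the 4 lowest.

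**Figure D3:**
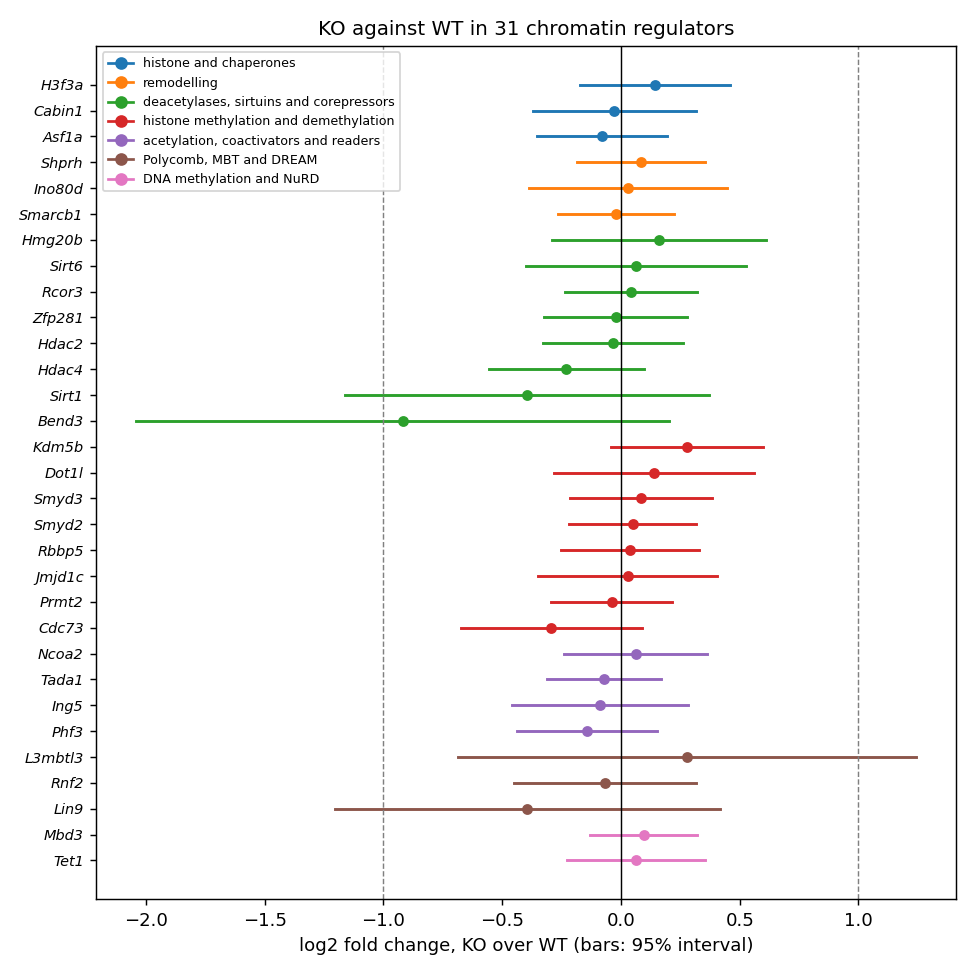
Fitted log2 fold change of KO over WT for each tested regulator (point) with its 95% interval (bar), coloured by role, with dashed lines at a 2-fold difference in each direction. Every interval includes 0, and 4 of the 31 cross a dashed line.

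Among the histone and chaperone genes, H3f3a stood at 2530, 2558 and 1903 CPM in WT replicates 1, 2 and 3 and at 2746, 2677 and 2298 CPM in KO replicates 1, 2 and 3. WT replicate 3 was the lowest of the 6 and the groups overlapped. The log2 fold change was 0.14 with a 95% interval from -0.17 to 0.46. The H3f3a value carries a limit, since 30.3% of the 50-base stretches of its transcript also occur in transcripts of 41 other genes. The gene that shares the most of them is Gm17275, a long non-coding RNA gene on the opposite strand. It covers 18.2% of the H3f3a exon length. The handling of reads that match several genes is not stated in the labels. H3f3a lies on chromosome 1 from 180802560 to 180813605 in mm10. Asf1a averaged 538 ± 56.0 CPM in WT against 510 ± 29.8 CPM in KO (SD, n = 3). Its exons overlap those of Mcm9 on the opposite strand over 48.0% of their length, and 65.8% of the 50-base stretches of the Asf1a transcript also occur in Mcm9 transcripts. Mcm9 averaged 94.5 ± 7.24 CPM in WT against 86.8 ± 3.17 CPM in KO. The labels do not state if strand was used in counting. The exons of Smyd2 are likewise covered over 30.0% of their length by an antisense gene, Gm37422. Cabin1, a subunit of the HIRA complex that deposits H3.3, averaged 361 ± 55.9 CPM in WT against 354 ± 37.6 CPM in KO.

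The 3 remodelling genes had log2 fold changes between -0.02 and 0.09, and all 3 intervals lay within 0.5 of no change. Smarcb1 measured 1302, 1534 and 1324 CPM in the WT replicates and 1376, 1427 and 1299 CPM in the KO replicates, so that the KO replicates lay within the WT range but for 1 just below it. Its fold change was 0.986 with an interval from 0.833 to 1.17. Shprh, a helicase of the SNF2 family with a ubiquitin ligase domain, measured 383, 472 and 457 CPM in the WT replicates and 463, 459 and 469 CPM in the KO replicates. The KO replicates of Shprh were closest together of all members in that genotype, with an SD of 0.015 on the log2 scale. Ino80d, a subunit of the INO80 complex, averaged 174 ± 22.4 CPM in WT against 177 ± 36.3 CPM in KO (SD, n = 3).

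Histone deacetylase and corepressor genes held the single regulator whose groups did not overlap. Hdac4 stood at 161, 156 and 145 CPM in WT replicates 1, 2 and 3 and at 139, 124 and 131 CPM in KO replicates 1, 2 and 3, so each KO replicate lay below each WT replicate. The mean of Hdac4 was 154 ± 7.81 CPM for WT against 131 ± 7.38 CPM for KO (SD, n = 3). The fold change was 0.852 with an interval from 0.679 to 1.07, at an unadjusted p of 0.144 and an adjusted p of 0.994 in edgeR's quasi-likelihood test. Groups that do not overlap were found in 1 of 31 regulators, beside 8.49% of all genes tested in either direction and 4.04% with KO below WT. Hdac4 spans chromosome 1 from 91928779 to 92195702 in mm10. A long non-coding RNA gene on the opposite strand, Gm26720, covers 22.4% of the length of all its exons together. Of the 50-base stretches of the principal Hdac4 transcript, 1.08% also occur in Gm26720 transcripts.

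Hdac2 measured 771, 974 and 732 CPM in the WT replicates and 776, 837 and 808 CPM in the KO replicates. The KO replicates lay inside the WT range, and the fold change was 0.978 with an interval from 0.797 to 1.2. Sirt1, a nuclear deacetylase that depends on NAD, was low and variable, at 68.6, 34.5 and 53.3 CPM in the WT replicates and 51.8, 31.2 and 36.2 CPM in the KO replicates. WT replicate 1 had the highest value, the groups overlapped, and the fold change of 0.760 had an interval from 0.447 to 1.29. Sirt6, a nuclear sirtuin, differed less, at 79.4 ± 12.5 CPM in WT against 82.9 ± 5.26 CPM in KO (SD, n = 3).

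Bend3, a repressor that binds heterochromatin, had the largest fitted difference of the set and the widest interval. It measured 27.7, 19.6 and 13.1 CPM in the WT replicates and 15.1, 7.28 and 9.72 CPM in the KO replicates, from 46 to 146 counts per replicate. KO replicate 1 lay above WT replicate 3, so the groups overlapped. The fold change was 0.529 with an interval from 0.243 to 1.15, at an unadjusted p of 0.0969 and an adjusted p of 0.994 in edgeR's quasi-likelihood test. The other corepressor genes averaged 323 ± 15.9 CPM in WT against 332 ± 32.1 CPM in KO for Rcor3, at 120 ± 16.8 and 135 ± 27.5 CPM for Hmg20b, and at 1594 ± 250 and 1570 ± 104 CPM for Zfp281 (SD, n = 3).

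Of the 8 genes of histone methylation and demethylation, 6 had a log2 fold change above 0 and 2 below, with a median of 0.04. Kdm5b measured 501, 617 and 630 CPM in the WT replicates and 615, 702 and 803 CPM in the KO replicates. KO replicates 2 and 3 were the highest of the 6, and KO replicate 1 lay within the WT range. The fold change of Kdm5b was 1.21 with an interval from 0.971 to 1.52, at the smallest unadjusted p of the set, 0.081, and an adjusted p of 0.994 in edgeR's quasi-likelihood test. Cdc73 had the opposite sign, at 246, 260 and 183 CPM in the WT replicates and 167, 189 and 205 CPM in the KO replicates. WT replicate 3 lay among the KO replicates, and the fold change was 0.816 with an interval from 0.627 to 1.06. Kdm5b and Cdc73 are given by replicate because their unadjusted p was low, so they were chosen after their values were seen.

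Dot1l measured 308, 235 and 368 CPM in the WT replicates and 294, 318 and 391 CPM in the KO replicates, with WT replicate 2 lowest and a fold change of 1.1 (95% interval 0.823 to 1.47). Jmjd1c, of the KDM3 demethylase family, averaged 332 ± 33.0 CPM in WT against 339 ± 70.6 CPM in KO (SD, n = 3). The other 4 genes of this role overlapped as well. The 95% interval of the fold change was 0.860 to 1.24 for Smyd2, 0.861 to 1.30 for Smyd3, 0.815 to 1.16 for Prmt2 and 0.839 to 1.26 for Rbbp5.

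**Figure D4:**
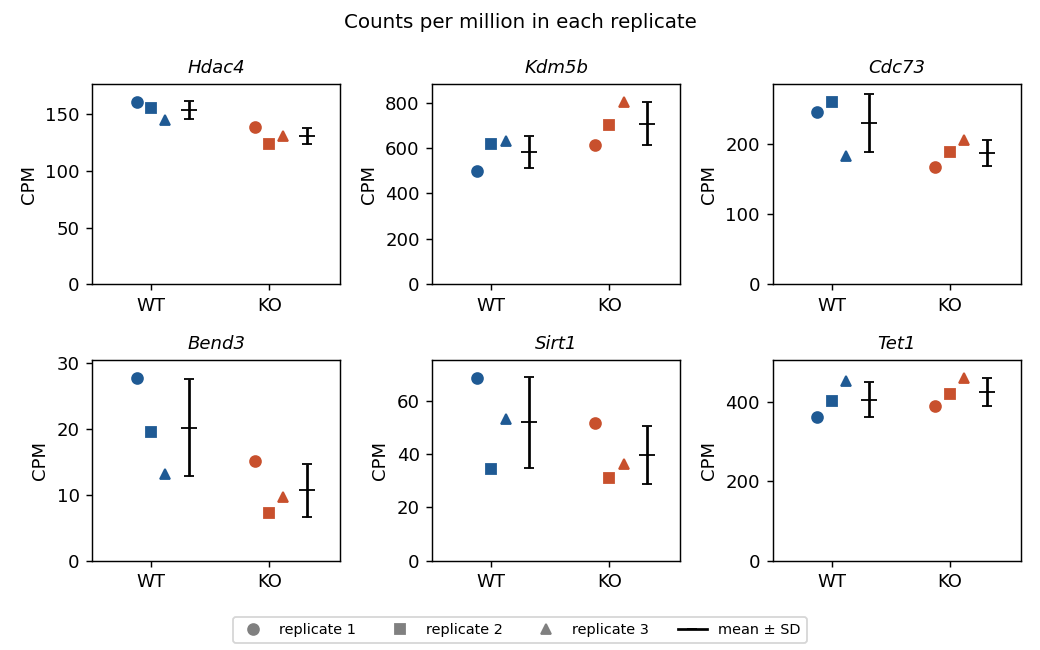
CPM of Hdac4, Kdm5b, Cdc73, Bend3, Sirt1 and Tet1 in each replicate (marker shape for the replicate number), with the mean and SD of the 3 replicates beside them and each vertical axis starting at 0. In Hdac4 the KO points, 124 to 139 CPM, lie below the WT points, 145 to 161 CPM, and in the other 5 genes the groups overlap.

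Among acetylation cofactors and readers, Tada1 averaged 1552 ± 128 CPM in WT against 1479 ± 74.5 CPM in KO (SD, n = 3), and 61.8% of the 50-base stretches of its transcript also occur in other transcripts, mainly of Pogk on the opposite strand, which covers 25.6% of its exon length. Pogk averaged 1177 ± 175 CPM in WT against 1329 ± 194 CPM in KO. Ncoa2 averaged 562 ± 69.5 CPM in WT against 587 ± 56.4 CPM in KO. Phf3, which binds RNA polymerase II, averaged 532 ± 39.3 CPM in WT against 481 ± 59.1 CPM in KO, and Ing5, a reader of methylated histone H3 in acetyltransferase complexes, at 149 ± 16.4 and 140 ± 16.4 CPM. The intervals of all 4 lay within 0.5 of no change on the log2 scale.

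Of the 3 genes of Polycomb, MBT and DREAM proteins, Lin9 and L3mbtl3 were measured less closely. Their SEs were 0.357 and 0.425 on the log2 scale, against 0.168 for Rnf2. Rnf2 measured 309, 398 and 256 CPM in the WT replicates and 295, 300 and 323 CPM in the KO replicates, with the KO replicates inside the WT range. Its fold change was 0.955 with an interval from 0.733 to 1.24. L3mbtl3, whose MBT repeats bind methylated lysine, measured 19.8, 38.8 and 21.1 CPM in the WT replicates and 47.0, 27.7 and 21.9 CPM in the KO replicates. Its highest values were KO replicate 1 and WT replicate 2, and the fold change of 1.21 had an interval from 0.622 to 2.37. Lin9, a core subunit of the DREAM complex that controls cell cycle genes, measured 38.0, 26.3 and 34.4 CPM in the WT replicates and 20.8, 34.4 and 19.9 CPM in the KO replicates. The groups overlapped, and the fold change of 0.761 had an interval from 0.434 to 1.33.

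Among the DNA methylation and NuRD genes, Tet1 measured 364, 402 and 453 CPM in the WT replicates and 391, 422 and 461 CPM in the KO replicates. The groups overlapped over most of their range, and the fold change was 1.04 with an interval from 0.853 to 1.28. Mbd3 measured 1328, 1202 and 1213 CPM in the WT replicates and 1290, 1399 and 1314 CPM in the KO replicates. WT replicate 1 lay among the KO replicates, and the fold change of 1.07 had an interval from 0.915 to 1.25. Dnmt3l had no count in either genotype, so no fold change is given.

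The spread among replicates of a genotype was small for most regulators. The median SD of log2(CPM + 1) over the 31 members was 0.183 in WT and 0.139 in KO, against 0.260 and 0.208 over all genes tested. Among genes of at least 100 CPM the medians were 0.160 in WT and 0.136 in KO for 26 members, and 0.182 and 0.138 for 835 genes. The SD was larger in WT than in KO for 19 members (61.3%), beside 60.5% of all genes tested. In WT the SD was largest for L3mbtl3, at 0.52, Bend3, at 0.51, and Sirt1, at 0.49. In KO it was largest for L3mbtl3, at 0.55, Bend3, at 0.48, and Lin9, at 0.42. Rnf2 had an SD of 0.32 in WT and 0.07 in KO, and Prmt2 had 0.04 and 0.17. A difference in spread between genotypes was not tested.

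**Figure D5:**
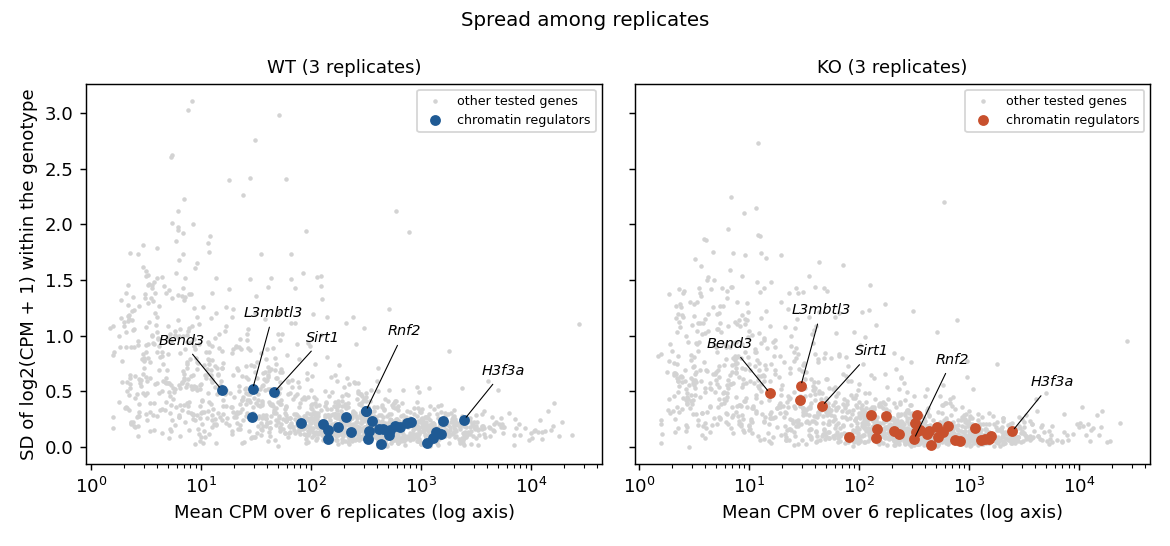
SD of log2(CPM + 1) among the 3 replicates of WT (left) and of KO (right) against mean CPM on a log axis, for the tested regulators (coloured) and the other genes tested (grey). L3mbtl3, Bend3 and Sirt1, at mean levels under 100 CPM, have the largest SD of the regulators in WT, and Rnf2 lies at 0.32 in WT and 0.07 in KO.

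No replicate stood apart over the set as a whole. The median deviation of a replicate from the mean of the 6, over the 31 members, ran from -0.05 in KO replicate 2 to 0.04 in WT replicate 2 on the log2 scale. WT replicate 1 held the lowest value of 9 members and the highest of 5, and WT replicate 2 the lowest of 5 and the highest of 9.

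Other chromatin genes gave a similar count. Of a fixed list of 371 further chromatin regulators, 21 were in the table and 18 were tested. None of the 18 passed the threshold (edgeR's quasi-likelihood test, adjusted p 0.994 or above), 0 had an unadjusted p under 0.05, 9 had a log2 fold change above 0 and 9 below, and the median was 0.00. Groups that do not overlap were found in 1 of the 18, beside the 8.49% of all genes tested. Uchl5, a deubiquitinase that joins the INO80 complex, was the gene of this list whose groups did not overlap, at 417, 472 and 413 CPM in the WT replicates and 369, 385 and 381 CPM in the KO replicates. Its log2 fold change was -0.20 ± 0.11 (SE), with an unadjusted p of 0.112 in the same fit. Tdg, the glycosylase that removes oxidised methylcytosine, averaged 935 ± 34.3 CPM in WT against 889 ± 154 CPM in KO (SD, n = 3). Parp1, which modifies chromatin at DNA breaks, averaged 683 ± 27.2 CPM in WT against 730 ± 110 CPM in KO.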

How the data were processed

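RNA was sequenced as 50-base single reads from 12 libraries, 2 for each of 3 WT and 3 KO replicates. The deposited values are raw read counts per gene, per the file headers and the values. The genome build mm10, the aligner HISAT2, the counter featureCounts, fastp, FastQC, SAMtools 1.4.1, CASAVA 1.8.2 and DESeq2 1.38.1 are named, per the submitters' processing notes. Their parameters, annotation and use of strand were not given in the sources used here. The table held 2398 complete lines, and 1 incomplete line was left out. 2226 identifiers matched RefSeq symbols, and 172 with 0.552% of counts did not.

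Libraries of a replicate agreed nearly within sampling noise (chi-square 1.00 to 1.06 per degree of freedom) and were summed. The genotypes were compared by a robust quasi-likelihood fit (edgeR 4.0.16, R 4.3.3, TMM, filterByExpr, Benjamini-Hochberg adjustment over 1484 genes at 0.05). Each SE was taken from the F statistic, and the 95% interval from the SE and the t quantile. CPM uses the TMM factors, lengths are GENCODE M21 principal transcripts, and coordinates are from RefSeq GRCm38.p6. Alternatives were RLE factors, no filter, DESeq2 1.42.0, limma-voom (limma 3.58.1), a replicate block, single libraries, other lengths or pseudocounts, and leaving out replicates. The smallest two-sided p of an exact permutation test with 3 against 3 is 0.1.

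All members are described. Values by replicate are given for members whose groups do not overlap or with an unadjusted p under 0.05, the 3 highest and 3 lowest by level, the 3 of largest SD, and Hdac2, Hdac4, Sirt1, Dot1l, Tet1, H3f3a and Smarcb1. Kdm5b, Cdc73, Shprh and Rnf2 fall outside this rule and were added after their values were seen. Of the other chromatin genes, those whose groups do not overlap were to be named. Tdg and Parp1, whose groups overlap, fall outside that rule. Members and lists were chosen with earlier results of these data known.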

Additional observations from a re-analysis of the deposited data

How the results depend on the processing

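None of the 31 regulators was called under any of the 7 other settings or in the 6 fits without a replicate, where the lowest adjusted p of a regulator was 0.879. None of the other 18 chromatin genes was called in these fits either. Over all genes tested, the counts of 0 higher and 0 lower became 6 and 1 with DESeq2, for which the cause was not tested. At an unadjusted p under 0.05 in edgeR's quasi-likelihood test, Kdm5b passed with the replicate block and without KO replicate 1. Bend3 passed with the second library alone, and Cdc73 without WT replicate 3. In each of these fits 1 regulator passed. Beside it, 49 of all 1484 genes tested passed with the replicate block and 68 of 1539 without KO replicate 1. With the second library alone 64 of 1367 genes passed, and without WT replicate 3 it was 81 of 1536. The median log2 fold change of the regulators was 0.028, became -0.011 with limma-voom, and ranged from -0.035 to 0.056 without a replicate. Of 217 values of single regulators under the other settings, 214 kept their sign. Those that changed it were Jmjd1c with limma-voom (-0.011), Smarcb1 with the second library alone (0.007) and Cabin1 with the first library alone (0.006). Without some replicate 20 regulators changed sign, and 11 did not. The lowest and highest log2 fold changes were -0.106 and 0.114 for Hdac2, -0.001 and 0.197 for Sirt6, -0.036 and 0.086 for Rcor3, -0.018 and 0.268 for Hmg20b, -0.141 and 0.090 for Zfp281, -0.157 and 0.124 for Jmjd1c, -0.006 and 0.310 for Dot1l, -0.041 and 0.098 for Smyd2, -0.100 and 0.047 for Prmt2, -0.071 and 0.146 for Rbbp5, -0.013 and 0.155 for Tet1, -0.065 and 0.067 for Smarcb1, -0.154 and 0.149 for Ino80d, -0.004 and 0.151 for Shprh, -0.200 and 0.129 for Rnf2, -0.096 and 0.660 for L3mbtl3, -0.139 and 0.063 for Cabin1, -0.189 and 0.011 for Ing5, -0.121 and 0.001 for Tada1 and -0.035 and 0.146 for Ncoa2. For Bend3, Sirt1, Lin9, Hdac4, Kdm5b and Cdc73, which kept their sign, they were -1.247 and -0.619, -0.633 and -0.15, -0.690 and -0.254, -0.275 and -0.188, 0.175 and 0.367, and -0.425 and -0.184.

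The 10 regulators of highest level per kb were the same with the longest transcript, the union of exons, single libraries or any replicate left out, and 8 of them were the same by CPM with no length. Same-numbered replicates had correlated deviations of 0.0033, -0.33 and 0.15 across genes. Between unlike numbers the values ran from -0.37 (WT 3 and KO 1) to 0.38 (WT 2 and KO 1). These values give no ground to pair samples by number, but whether samples of the 2 genotypes shared a batch was not tested. With the replicate block 0 genes were called in either direction and the regulators had a median of 0.015, and no WT replicate correlated best with its own number. The 4 regulators with wide intervals had means under 60 CPM, and their intervals include a 2-fold difference.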

Other observations

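The 250-base promoter windows were searched for 4 short motifs on both strands. The GC box, searched as GGGCGG, occurred in 24 of the 25 tested regulators with a promoter sequence (96.0%), beside 60.5% of tested genes of the table and 34.4% of all genes with a promoter sequence. Rbbp5 was the tested regulator without it. The TATA box, searched as TATAAA, occurred in 2 of the 25 at the start site with the most CpG, Mbd3 and Prmt2, beside 6.63% of tested genes. The CCAAT box, searched as CCAAT, occurred in 9 (36.0%), beside 34.5% of tested genes. The ETS motif, searched as CCGGAAG, occurred in 3, Prmt2, Dot1l and Ing5 (12%), beside 11.9% of tested genes. Each GC box holds a CpG dinucleotide, so the share with a GC box and the CpG counts are not independent. A match is a description of the sequence and not a bound site.

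Several regulators lie in the same region of the genome, with other genes of the table between them. Mbd3, Dot1l, Hmg20b and Sirt6 lie on chromosome 10 between 80392539 and 81627792 in mm10, and their log2 fold changes were 0.10, 0.14, 0.16 and 0.06. Cabin1, Smarcb1 and Prmt2 lie between 75646110 and 76237865 on the same chromosome, with log2 fold changes of -0.03, -0.02 and -0.04. Tet1 and Sirt1 lie between 62804570 and 63339035 on chromosome 10 and differed in sign, with log2 fold changes of 0.062 and -0.395. Lin9 and H3f3a lie on chromosome 1 between 180641150 and 180813605, with log2 fold changes of -0.39 and 0.14. Without some replicate, Dot1l, Hmg20b, Sirt6, Cabin1, Smarcb1, Prmt2 and Tet1 changed sign. Mbd3, Sirt1, Lin9 and H3f3a kept theirs. None of these genes passed the test, and differences between these regions were not tested.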
